A study of Mus musculus with 16 samples.

Results

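The 2'-5' oligoadenylate synthetase (OAS) family in B16F10 melanoma allografts was examined through 7 genes of the 45777 listed in the expression table: Oas1a, Oas1b, Oas1g, Oas2, Oas3, Oasl1 and Oasl2. They were matched by symbol, and had been selected on their measured read counts and TPM values over the 4 groups of tumors, so that their levels and differences between groups are given as a description, without p-values. The table listed 12 genes named Oas or Oasl in all, and the 5 others (Oas1c, Oas1d, Oas1e, Oas1f and Oas1h) are given further on.

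OAS enzymes are cytosolic sensors of double-stranded RNA. On binding it, they join ATP into short oligoadenylates that act as a second messenger in antiviral defense. Their genes are interferon-stimulated: the receptor for type I interferon (Ifnar1 and Ifnar2) signals through the kinases Jak1 and Tyk2 to a complex that includes Stat2 and Irf9 and binds the interferon-stimulated response element (ISRE) in their promoters.

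B16F10, a melanoma line derived from C57BL/6 mice, was injected under the skin of the flank of lean wild-type C57BL/6J mice or of obese, leptin-deficient C57BL/6J-ob/ob mice, all 6 weeks old at injection. The tumors were collected pre-therapy or after etoposide (ETS), an inhibitor of topoisomerase that leaves breaks in DNA, and their RNA was sequenced, which gave 4 groups of 4 tumors: lean pre-therapy, lean after ETS, obese pre-therapy and obese after ETS. ETS was injected into the peritoneum at 20 mg per kg daily for 5 days, from a tumor volume of about 100 mm3, with collection on the day after the course. When the pre-therapy tumors were collected, and whether their hosts received a vehicle, is not given in the sources used here. An effect of ETS below is thus a difference between tumors after the course and pre-therapy tumors. In it, the drug, the injections and the time of growth cannot be told apart.

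The ob/ob hosts lack leptin in the whole body, so that obesity and the absence of leptin cannot be told apart, and all tumors grew from 1 cell line. Read counts summed to between 47199949 and 61655287 per tumor. All 8 melanocyte markers examined, among them Tyr, Dct and Mlana, were detected in every tumor, with summed levels of 11260 to 27990 CPM (read counts divided by the library size, which was scaled between tumors with the TMM factors of edgeR). The tumors also held RNA of host cells: the 10 macrophage markers examined summed to 43.8 to 1402 CPM. In such bulk tissue, fewer cells of a type and less RNA per cell cannot be told apart. Each tumor is taken as a separate animal's tumor only as far as its label numbers it, so that the spread between tumors may in part be technical.

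All members lie on chromosome 5 of the mouse genome (GRCm38.p6, the assembly also called mm10), in a pair of clusters. Oas2 (chr5:120730333-120749886), Oas3 (chr5:120753098-120777684), Oas1b (chr5:120812635-120824163), Oas1g (chr5:120876142-120887613) and Oas1a (chr5:120896256-120907544) share a cluster with the 5 other Oas1 genes, whereas Oasl2 (chr5:114896926-114912245) and Oasl1 (chr5:114923143-114937911) are neighbors in the other cluster. RefSeq annotates Oas1b as a transcribed pseudogene, since C57BL/6 mice carry a truncated form of this flavivirus resistance gene, and the other members as protein-coding.

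The sequence just upstream of the start was read from the RefSeq promoter table (GRCm38.p6), which covers 250 bases before and 50 bases after the start it assigns to a gene and has entries for 5 of the 7 members. It was searched on both strands for the ISRE core GAAANNGAAA and for TTCNNNGAA, the core of the interferon gamma-activated sequence (GAS). The ISRE core occurs in 3.44% of the 32851 promoters of the table and was found in 3 of the 5 members, Oas1a, Oas1g and Oas3. It was not found in these windows of Oasl1 and Oasl2. The assigned starts of Oas1a, Oas3, Oasl1 and Oasl2 lie inside the gene coordinates given above. Their windows thus cover fewer bases upstream of the annotated genes. A GAS match, present in 8.30% of all promoters, was found in Oas1a alone. Oas1b has no entry, but the table's window for Oas1c spans the stretch between these genes, whose annotated starts lie 94 bases apart on opposite strands. The 120 bases upstream of the assigned starts of Oas1a (chr5:120907526-120907645, minus strand), Oas1g (chr5:120887614-120887733, minus strand) and Oas3 (chr5:120777660-120777779, minus strand), together with the stretch from the start of Oas1c into the first 16 bases of Oas1b (chr5:120812541-120812650, plus strand), are given so that the ISRE cores, in capitals, can be compared.
Oas1a: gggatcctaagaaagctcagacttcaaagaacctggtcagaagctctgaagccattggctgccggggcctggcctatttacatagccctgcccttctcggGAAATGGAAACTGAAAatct
Oas1g: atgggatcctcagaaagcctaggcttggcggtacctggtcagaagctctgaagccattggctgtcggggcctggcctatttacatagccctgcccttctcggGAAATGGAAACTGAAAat
Oas3: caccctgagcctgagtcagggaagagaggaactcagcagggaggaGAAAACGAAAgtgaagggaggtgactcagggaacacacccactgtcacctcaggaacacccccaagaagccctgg
Oas1c-Oas1b: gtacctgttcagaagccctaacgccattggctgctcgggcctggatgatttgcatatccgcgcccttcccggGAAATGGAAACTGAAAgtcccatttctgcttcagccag

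Oas1a, Oas1g and the stretch before Oas1b each held a pair of overlapping ISRE cores in the same 19 bases, CGGGAAATGGAAACTGAAA, and the windows of Oas1a and Oas1g shared a run of 56 identical bases around it. The pair in Oas1a lies almost wholly within the annotated gene, since the assigned start is inside it. In Oas3, a single core with other spacer letters began 75 bases upstream of the assigned start. These matches describe the letters of the reference and were not measured in the tumors.

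Oas1a, an active synthetase, had the highest mean TPM of the members in every group, although Oasl2 had the higher mean CPM in lean pre-therapy tumors. Oas1a stood at 65.04, 70.7, 43.8 and 48.9 CPM in the 4 lean pre-therapy tumors, at 43.3, 45.3, 28.9 and 36.2 CPM in the lean tumors after ETS, at 6.99, 5.26, 3.299 and 2.44 CPM in the obese pre-therapy tumors, and at 30.01, 33.5, 8.398 and 25.7 CPM in the obese tumors after ETS. The obese pre-therapy tumors lay below all others, and the groups after ETS lay between them and the lean pre-therapy tumors, overlapping with each other and, for the lean tumors, with the lowest lean pre-therapy tumor. Oas1g, a close paralog that also makes oligoadenylates, stood at 26.2, 30.5, 21.1 and 21.2 CPM in the 4 lean pre-therapy tumors, at 19.3, 19.4, 14.7 and 16.1 CPM in the lean tumors after ETS, at 3.14, 2.19, 1.34 and 1.22 CPM in the obese pre-therapy tumors, and at 13.0, 13.3, 4.17 and 12.01 CPM in the obese tumors after ETS. Its order of groups was the same, but every lean tumor after ETS lay below every lean pre-therapy tumor, and every obese tumor after ETS below every lean tumor after ETS.

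Oas1b, the pseudogene, stood at 3.88, 7.90, 7.02 and 4.97 CPM in the 4 lean pre-therapy tumors, at 1.82, 2.36, 1.77 and 2.19 CPM in the lean tumors after ETS, at 1.03, 0.598, 0.318 and 0.636 CPM in the obese pre-therapy tumors, and at 1.904, 2.68, 1.896 and 3.43 CPM in the obese tumors after ETS. It was again lowest in the obese pre-therapy tumors, and the groups after ETS overlapped. Oas2, a synthetase built of a tandem pair of OAS units, stood at 16.8, 37.7, 25.5 and 22.3 CPM in the 4 lean pre-therapy tumors, at 10.8, 5.41, 5.23 and 9.96 CPM in the lean tumors after ETS, at 0.372, 1.08, 0.201 and 0.371 CPM in the obese pre-therapy tumors, and at 5.93, 4.94, 3.11 and 11.4 CPM in the obese tumors after ETS. Its obese pre-therapy tumors had 18, 54, 12 and 21 reads, so that counting error is larger there than elsewhere, and tumor 2 alone stood above 1 CPM. Oas3, which holds a further OAS unit and binds long double-stranded RNA, stood at 20.5, 28.4, 6.82 and 11.01 CPM in the 4 lean pre-therapy tumors, at 3.15, 2.06, 1.34 and 0.963 CPM in the lean tumors after ETS, at 0.124, 0.419, 0.268 and 0.0353 CPM in the obese pre-therapy tumors, and at 8.94, 3.95, 2.598 and 10.02 CPM in the obese tumors after ETS. With 6, 21, 16 and 2 reads, its obese pre-therapy tumors were close to the limit of detection, and both groups of lean tumors were separated without overlap.

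Oasl1, an OAS-like protein without synthetase activity that restrains translation of Irf7 mRNA, stood at 15.01, 17.1, 4.699 and 7.07 CPM in the 4 lean pre-therapy tumors, at 9.11, 6.55, 8.502 and 5.41 CPM in the lean tumors after ETS, at 0.331, 0.917, 0.536 and 0.3002 CPM in the obese pre-therapy tumors, and at 11.8, 10.8, 3.49 and 10.4 CPM in the obese tumors after ETS. Lean tumors before and after ETS overlapped, since lean pre-therapy tumors 3 and 4 were well below tumors 1 and 2, while the obese pre-therapy tumors remained under 1 CPM. Oasl2, an OAS-like protein with ubiquitin-like domains that has kept synthetase activity in the mouse, stood at 64.1, 98.99, 60.1 and 68.3 CPM in the 4 lean pre-therapy tumors, at 12.2, 9.39, 7.14 and 8.21 CPM in the lean tumors after ETS, at 1.49, 2.63, 1.32 and 0.565 CPM in the obese pre-therapy tumors, and at 19.98, 12.1, 7.73 and 21.7 CPM in the obese tumors after ETS. All lean tumors after ETS were far below the lean pre-therapy tumors, and the groups after ETS overlapped.

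**Figure D1:**
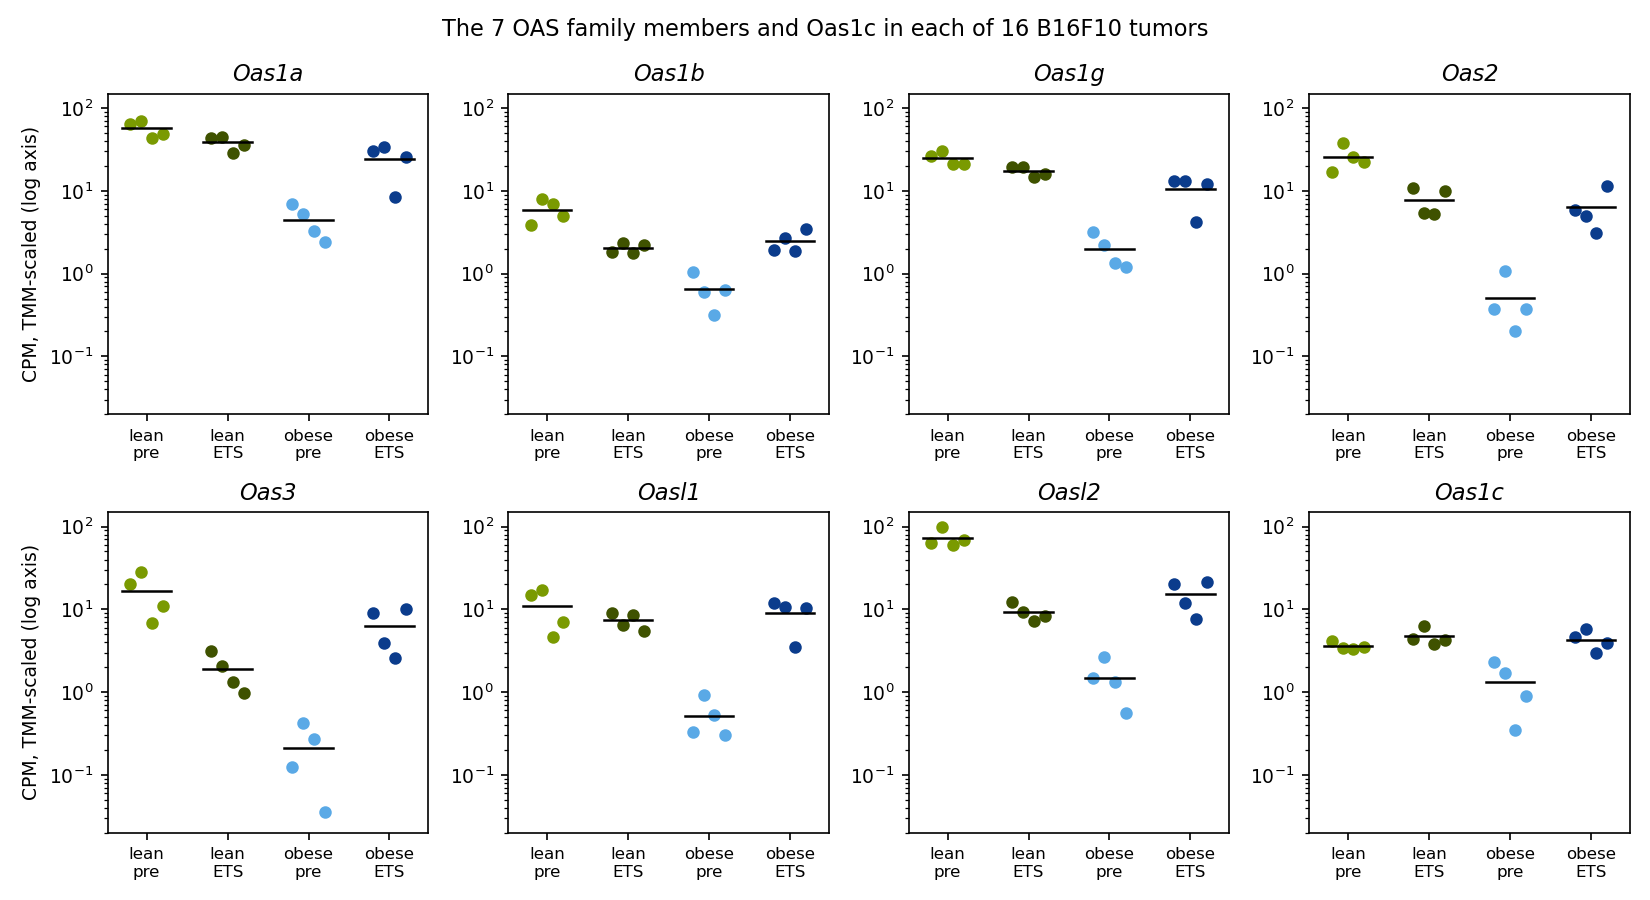
CPM (TMM-scaled, log axis) of the 7 members and of Oas1c in each tumor, with 4 points for the tumors of a group and a bar at their mean. In all 7 members the obese pre-therapy tumors lie below every other tumor, as they do in Oas1c, where they reach 2.31 CPM and the other tumors have 2.93 CPM or more.

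Between the pre-therapy groups, the comparison of obese with lean hosts describes how tumors of the 2 hosts differed before ETS. All 7 members were lower in the obese tumors and none of the groups overlapped, with means of 1.27% (Oas3) to 10.9% (Oas1b) of the lean level. The log2 fold changes were -6.29 ± 0.72 (SE, 4 tumors a group) for Oas3, -5.67 ± 0.55 for Oas2, -5.61 ± 0.43 for Oasl2, -4.40 ± 0.51 for Oasl1, -3.67 ± 0.40 for Oas1a, -3.65 ± 0.36 for Oas1g and -3.20 ± 0.34 for Oas1b. The 3 Oas1 genes thus differed least, by 9.22 to 12.7-fold, and Oas3 most, by 78.4-fold. With genes called at an adjusted p under 0.05 (quasi-likelihood test of edgeR), 7 of 7 were lower, where 12.9% of all 16209 tested genes were called lower and 13.5% higher, and 14.4% of them were lower without overlap. The members were chosen with these values known, and nothing is read from their count here or in the comparisons that follow. The median of the members was -4.40, against 0.02 for all genes tested. Without obese pre-therapy tumor 2, the value of Oas2 was -6.35.

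In obese hosts, ETS was accompanied by higher levels of all 7 members. Their means rose to between 3.83 and 30.1 times the pre-therapy mean, and no obese tumor after ETS lay as low as any obese pre-therapy tumor. The log2 fold changes were 4.91 ± 0.69 for Oas3, 4.12 ± 0.51 for Oasl1, 3.66 ± 0.51 for Oas2, 3.36 ± 0.40 for Oasl2, 2.44 ± 0.38 for Oas1a, 2.43 ± 0.35 for Oas1g and 1.94 ± 0.33 for Oas1b. The count was 7 of 7 called higher, beside 21.2% of all genes called higher, 19.0% called lower and 16.4% higher without overlap, and the medians were 3.36 for the members and 0.01 for all genes. Oas2 stood at 4.33 without obese pre-therapy tumor 2. The mean levels reached were 21.1% (Oasl2) to 82.9% (Oasl1) of those in lean pre-therapy tumors.

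In lean hosts, the log2 fold changes of the members after ETS ran from -3.15 to -0.51. Oas3 was lower after ETS by a log2 fold change of -3.15 ± 0.59, Oasl2 by -2.98 ± 0.37, Oas2 by -1.70 ± 0.44 and Oas1b by -1.55 ± 0.31. The values for Oas1a (-0.57 ± 0.35), Oasl1 (-0.57 ± 0.43) and Oas1g (-0.51 ± 0.32) were within 2 SE of 0. Oas3 and Oasl2 kept 11.3% and 12.7% of their mean lean pre-therapy CPM, whereas Oas1a, Oas1g and Oasl1 kept 67.3%, 70.2% and 67.3%. Of the 7 members, 4 were called lower and 5 were lower without overlap, beside 22.8% and 20.3% of all genes, of which 21.0% were called higher. The medians were -1.55 for the members and -0.01 for all genes. Oas1a and Oas1g were also called when only the 2 lean groups entered the fit (-0.58 and -0.52, where the median of all genes was -0.02) and on log2(TPM + 1) in limma (-0.94 and -0.83, where it was -0.28).

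After ETS, the fitted differences between hosts ran from -0.71 to 1.76. Oas1a (-0.66 ± 0.36 for obese minus lean, log2), Oas1g (-0.71 ± 0.32) and Oas2 (-0.31 ± 0.44) were lower on average in obese hosts, and Oas1b (0.28 ± 0.31), Oasl1 (0.30 ± 0.43), Oasl2 (0.73 ± 0.35) and Oas3 (1.76 ± 0.57) higher. None was called by edgeR's quasi-likelihood test, while 2 had an unadjusted p under 0.05, and the exact test and DESeq2 each called 1, Oas3. Among all genes, 3.28% were called higher and 2.30% lower, and 6.85% were lower without overlap, as was 1 member, Oas1g. The median was 0.28 for the members and 0.00 for all genes.

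The effect of ETS in obese hosts minus that in lean hosts, on the log2 scale, was 8.06 ± 0.91 for Oas3, 6.34 ± 0.55 for Oasl2, 5.36 ± 0.68 for Oas2, 4.69 ± 0.66 for Oasl1, 3.49 ± 0.45 for Oas1b, 3.02 ± 0.52 for Oas1a and 2.94 ± 0.47 for Oas1g. All 7 were called higher, beside 10.1% of all genes called higher and 6.35% called lower, with a median of 4.69 against -0.05 for all genes. For Oas2, the value without obese pre-therapy tumor 2 was 6.04. This difference contains the pre-therapy groups of both hosts, whose levels were far apart, and the host comparisons before and after ETS use the same tumors.

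**Figure D2:**
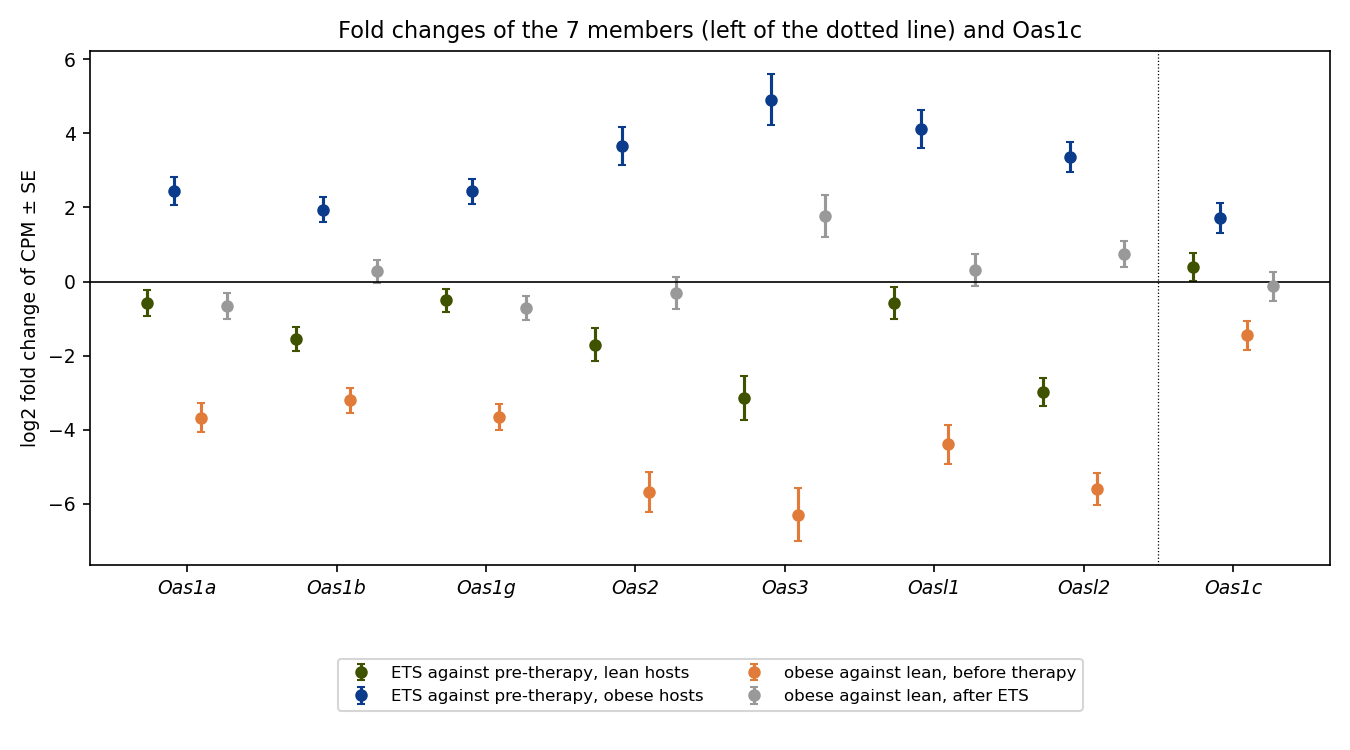
Log2 fold changes of CPM with their SE (edgeR, 4 tumors a group) for the 7 members and Oas1c in 4 comparisons. For the members the change after ETS is 1.94 to 4.91 in obese hosts and below 0 in lean hosts, and the values of obese against lean hosts run from -6.29 to -3.20 before therapy and from -0.71 to 1.76 after ETS.

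Levels of different genes were compared per length, in TPM (transcripts relative to all transcripts of a tumor). TPM carries no TMM scaling between tumors, and on log2(TPM + 1) the median change of all genes after ETS in lean hosts was -0.28. Falls there are thus larger in TPM than in CPM: Oas1a kept 51.3% of its lean pre-therapy mean in TPM and 67.3% in CPM. The 7 members together summed to 166, 245, 159 and 159.6 TPM in the lean pre-therapy tumors, 74.5, 63.96, 58.5 and 63.2 TPM in the lean tumors after ETS, 13.1, 11.7, 6.58 and 4.97 TPM in the obese pre-therapy tumors and 63.8, 66.4, 26.6 and 77.9 TPM in the obese tumors after ETS. In lean pre-therapy tumors, Oas1a had the highest mean (67.8 ± 11.5 TPM, SD, n = 4), followed by Oasl2 (51.5 ± 13.4) and Oas1g (26.2 ± 4.59). Oas2 (11.7 ± 4.26), Oasl1 (10.7 ± 5.57), Oas3 (7.53 ± 4.33) and Oas1b (7.05 ± 2.497) followed, and neighbors among these 4 differed by less than their SD. After ETS in lean hosts, Oas1a (34.8 ± 3.93 TPM) and Oas1g (14.2 ± 1.02) led, with Oasl1 (5.65 ± 1.51) and Oasl2 (4.86 ± 1.02) within an SD of each other.

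The make-up of the family also differed between groups, given here as shares of the summed TPM. Oasl2 made up 28.2% ± 2.69 of the summed TPM in lean pre-therapy tumors, 7.42% ± 0.759 in lean tumors after ETS, 10.2% ± 3.85 in obese pre-therapy tumors and 15.8% ± 4.07 in obese tumors after ETS (SD, n = 4). For Oas1a these shares were 37.5% ± 2.76, 53.5% ± 2.85, 52.6% ± 3.66 and 42.01% ± 6.95. Oasl2 had its highest share where the family was highest, and Oas1a its lowest. Oasl1 reached 12.7% ± 0.869 in obese tumors after ETS, against 8.75% ± 2.54 or less in the other groups. Oas3, at most 4.204% ± 1.45 of the total on average, made up 0.975% ± 0.378 in lean tumors after ETS and 0.953% ± 0.7204 in obese pre-therapy tumors.

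**Figure D3:**
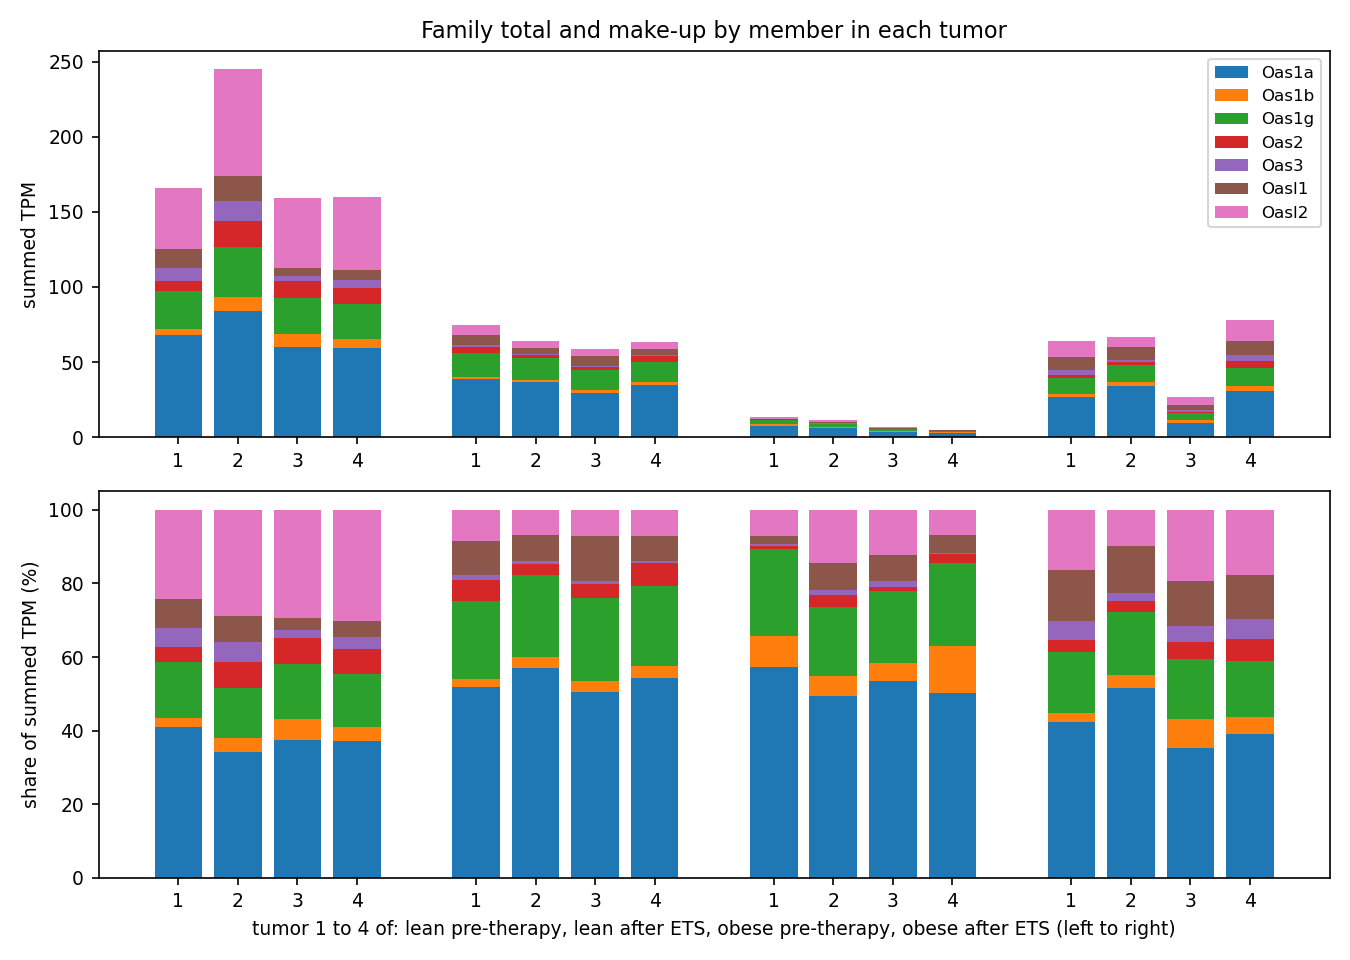
Summed TPM of the 7 members in each tumor (top) and the share of each member in that sum (bottom, percent), with 4 bars per group. The sum runs from 4.98 TPM in an obese pre-therapy tumor to 245.0 TPM in a lean pre-therapy tumor, and the share of Oasl2 is 28.2% on average in lean pre-therapy tumors and 7.42% in lean tumors after ETS.

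In 2 of the 4 groups, a tumor stood lowest or highest for every member. Among obese tumors after ETS, tumor 3 was the lowest for 7 of 7 members, and lean pre-therapy tumor 2 was the highest of its group for 7 of 7. In lean tumors after ETS and in obese pre-therapy tumors, no tumor was lowest or highest for all members. In lean pre-therapy tumors, Oas3 and Oasl1 were higher in tumors 1 and 2 than in tumors 3 and 4, as was Irf7, the interferon regulatory factor that amplifies type I interferon expression, at 69.8, 84.3, 25.7 and 30.1 CPM. Summed macrophage markers (1402, 1230, 442 and 958 CPM) and fibroblast markers (1022, 826, 352 and 449 CPM) split these tumors in the same way. So did dendritic cell and adipocyte markers, whereas melanocyte, endothelial, and T and NK cell markers did not. The part of these cells in the split was not tested. Over the 16 tumors, correlations of log2 CPM between pairs of members ran from 0.792 (Oas1b with Oasl1) to 0.998 (Oas1a with Oas1g), which describes 16 points that share groups and libraries. Oas1a and Oas1g are the pair whose reads can be confused: of the distinct windows as long as a read in the GENCODE vM21 transcript of Oas1a, 40.6% also occur in Oas1g, and 31.0% of those of Oas1g in Oas1a, whereas the other 5 members share none with any OAS gene. How the counting divided such reads is not stated, so the levels of Oas1a and Oas1g are less certain than those of the other members. The exons of Oasl1 overlap those of an antisense gene, Gm13822, by 38 bases (1.46% of the exon bases of Oasl1), and no exon of the other members overlaps another gene of that annotation. Where counting takes no account of strand, reads from such an overlap cannot be told apart.

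The 10 tested genes outside the family whose log2 CPM followed the mean of the members most closely over the 16 tumors were Rtp4, Ifitm3, Dhx58, Irf9, Usp18, Ifi44, Xaf1, Ifit3, Phf11d and Trim30d, with Pearson correlations of 0.969 to 0.993. Of the 12 tested protein-coding genes nearest to the sides of both clusters, such as Rasal1, Ptpn11, Git2 and Sppl3, 2 were called higher and 1 lower between hosts before therapy, with log2 fold changes of -0.73 to 0.73, 2 were called higher and 1 lower after ETS in lean hosts (-0.56 to 0.60), and 1 was called higher after ETS in obese hosts. DESeq2 called 4, 5 and 2 of the 12 in these comparisons, beside 4754, 7415 and 6921 of all 16209 genes. Of all genes tested, edgeR called 13.5% higher and 12.9% lower before therapy, 21.0% and 22.8% in lean hosts, and 21.2% higher in obese hosts. For the difference of ETS effects edgeR's quasi-likelihood test called 0 of the 12 (-0.68 to 0.47), with 2 at an unadjusted p under 0.05 and 2 called by DESeq2. Of all 16209 genes, edgeR's quasi-likelihood test called 10.1% higher and 6.35% lower, and DESeq2 called 3337.

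Among the 5 other Oas1 genes, Oas1c alone passed the filter on low counts. It stood at 4.17, 3.37, 3.34 and 3.53 CPM in the 4 lean pre-therapy tumors, at 4.37, 6.35, 3.87 and 4.31 CPM in the lean tumors after ETS, at 2.31, 1.72, 0.352 and 0.901 CPM in the obese pre-therapy tumors, and at 4.59, 5.85, 2.93 and 3.89 CPM in the obese tumors after ETS. Oas1c was lower in obese than in lean tumors before therapy (log2 fold change -1.45 ± 0.40, adjusted p = 0.0145 in edgeR's quasi-likelihood test), a call that was lost without obese pre-therapy tumor 4 (-1.31). It rose after ETS in obese hosts (1.71 ± 0.40, adjusted p = 0.00404) and gave 0.39 ± 0.39 in lean hosts (adjusted p = 0.428), and the difference of these effects was 1.32 ± 0.55 (adjusted p = 0.119). Oas1e had 0 reads in all tumors. Oas1d, Oas1f and Oas1h had 0 in most, with at most 8, 43 and 3 reads in a tumor.

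Of 3 genes that act on oligoadenylates or downstream of them, Abce1, which is also a ribosome recycling factor, fell after ETS in obese hosts (-0.57 ± 0.11, adjusted p = 0.00146) and gave -0.26 ± 0.11 in lean hosts (adjusted p = 0.0716). Pde12, a phosphodiesterase that degrades oligoadenylates, exceeded its lean level in obese tumors before therapy (0.21 ± 0.07, adjusted p = 0.026), a call lost in 14 of 25 alternatives. Akap7, whose product also carries such a phosphodiesterase domain, was called in no comparison and gave a difference of ETS effects of 0.16 ± 0.21 (adjusted p = 0.656). For the difference of ETS effects, edgeR's quasi-likelihood test called 0 of these 3 genes, with 0 at an unadjusted p under 0.05 and 0 called by DESeq2.

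The remaining sensors and effectors of double-stranded RNA, 10 genes, were lower in obese than in lean tumors before therapy in 7 cases and higher in 1, with a median log2 fold change of -1.47. The gene that was higher, Prkra (0.25 ± 0.09, adjusted p = 0.0498), lost its call in 21 of 25 alternatives, 14 of them among the 16 fits without a tumor. Zbp1, a sensor of left-handed RNA and DNA that can trigger necroptosis (-6.40 ± 0.63, adjusted p = 4.6e-06), Dhx58 (-4.09 ± 0.31, adjusted p = 4.09e-07), which encodes the RNA helicase LGP2, and Ifih1 (-2.99 ± 0.30, adjusted p = 4.88e-06), which encodes the sensor MDA5, were among those that were lower. After ETS in obese hosts 9 of 10 rose (median 0.88), among them Ddx58, which encodes RIG-I (2.27 ± 0.34, adjusted p = 0.000193). In lean hosts 5 fell and 3 rose (median -0.63). The adaptors Ticam1 (0.91 ± 0.14, adjusted p = 0.000182) and Mavs (0.48 ± 0.12, adjusted p = 0.00529), which carry the signals of Tlr3 and of the helicases, were among those that rose, although Mavs and Prkra were not called on the TPM scale. Ddx58 gave 0.01 ± 0.33 in lean hosts (adjusted p = 0.987), and its lean tumors before and after ETS overlapped, as they did for Oas1a and Oasl1. Among all genes tested, 12.9% were called lower and 13.5% higher before therapy. After ETS, 21.2% were called higher in obese hosts, and 22.8% lower and 21.0% higher in lean hosts. This list and that of interferon receptor signaling were chosen with earlier results of these data known.

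Of these 10 genes, 7 had a called difference of ETS effects toward obese hosts and 1 toward lean hosts. Among all genes these shares were 10.1% and 6.35%, and the median of the 10 was 1.42. The values were 7.18 ± 0.79 (adjusted p = 3.37e-05) for Zbp1, 3.79 ± 0.40 (adjusted p = 2.62e-05) for Dhx58, 3.09 ± 0.40 (adjusted p = 0.000127) for Ifih1 and 1.31 ± 0.14 (adjusted p = 2.78e-05) for Adar, the enzyme that edits adenosines in double-stranded RNA. Prkra, an activator of the kinase PKR, gave -0.40 ± 0.13 (adjusted p = 0.0457), a call lost in 12 of the 16 fits without a tumor, with the replicate block, without the filter and on the TPM scale. After ETS, edgeR's quasi-likelihood test called 0 of the 10 between hosts, as did the exact test, DESeq2 and limma on log2(TPM + 1), with 0 at an unadjusted p under 0.05.

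In the list of interferon receptor signaling, 8 of 8 genes were lower in obese than in lean tumors before therapy, with a median of -1.50. Jak1 was nearest the threshold (-0.28 ± 0.10, adjusted p = 0.0486) and lost its call in 14 of 25 alternatives, whereas Irf9 (-2.22 ± 0.18, adjusted p = 5.33e-07) and Irf7 (-4.50 ± 0.54, adjusted p = 2.9e-05) differed by more. After ETS, 6 of 8 rose in obese hosts (median 0.36), of which limma on log2(TPM + 1) called 2, and 6 fell in lean hosts (median -0.55). Irf1, a factor strongly induced by interferon gamma, fell in lean hosts (-3.46 ± 0.28, adjusted p = 1.47e-06) and did not pass the test in obese hosts (0.36 ± 0.26, adjusted p = 0.294), in contrast to Irf7, which rose there (3.79 ± 0.52, adjusted p = 0.00011). The difference of ETS effects was called for 6 of 8, all toward obese hosts (median 1.37), of which Jak1 (0.45 ± 0.14, adjusted p = 0.0378) lost its call in 9 of 23 alternatives. The quasi-likelihood test of edgeR called 0 of 8 between hosts after ETS, with 1 at an unadjusted p under 0.05 and 0 called by the exact test and DESeq2. Among all genes, 12.9% were called lower before therapy, 21.2% higher after ETS in obese hosts and 22.8% lower in lean hosts. For the difference of ETS effects, 10.1% were called higher.

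**Figure D4:**
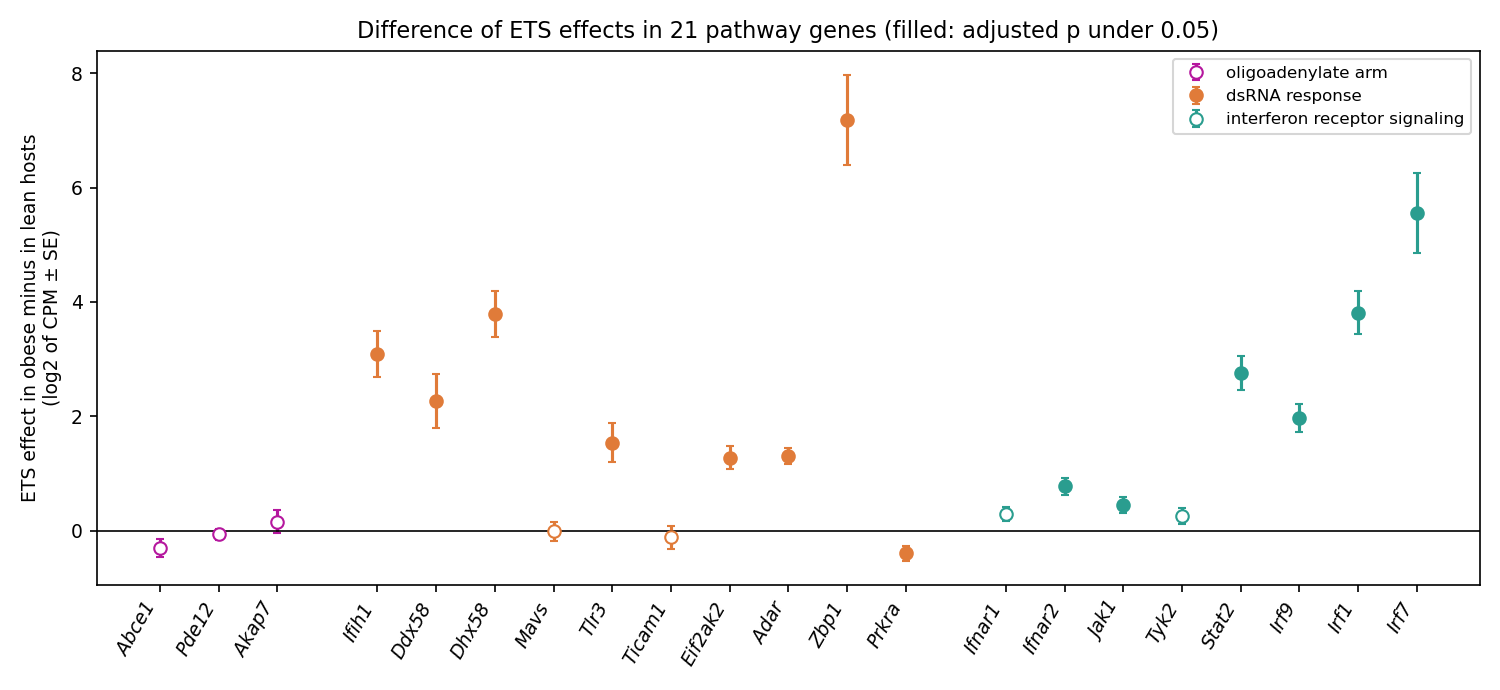
Effect of ETS in obese hosts minus that in lean hosts (log2 of CPM, with SE, edgeR) for 21 genes of 3 pathway lists, filled where the adjusted p was under 0.05. Zbp1 (7.18) and Irf7 (5.56) stand highest, and 14 of the 21 points are filled, of which Prkra (-0.40) lies below 0.

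Markers of host cells also differed between groups. The median sum of the macrophage markers was 1094 CPM in lean pre-therapy tumors and 238 CPM in lean tumors after ETS. In obese hosts it was 113 CPM before therapy and 576 CPM after ETS. These sums overlapped between lean tumors after ETS and obese pre-therapy tumors. The 10 macrophage markers summed to 1402, 1230, 442 and 958 CPM in lean pre-therapy tumors, 361, 432, 115 and 51.2 CPM in lean tumors after ETS, 75.95, 265, 151 and 43.8 CPM in obese pre-therapy tumors and 695, 365, 457 and 1114 CPM in obese tumors after ETS. Of these 10 genes, 9 were called lower in obese than in lean tumors before therapy, 8 lower after ETS in lean hosts, 8 higher after ETS in obese hosts, and 9 had a called difference of ETS effects. Among all genes, the shares called in these directions were 12.9%, 22.8%, 21.2% and, for a higher difference, 10.1%. The markers too were chosen with earlier results of these data known. The 8 T and NK cell markers summed to 34.8 to 59.6 CPM in lean pre-therapy tumors and to at most 3.26 CPM in any other tumor, and each was at 0 in at least 1 tumor. Their part in the levels of the members was not tested.

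The melanocyte markers summed to less in obese pre-therapy tumors (11620 to 15870 CPM) than in lean pre-therapy tumors (19020 to 24150 CPM). Of these 8 genes, 4 were called lower and 0 higher, beside 12.9% and 13.5% of all genes. The groups overlapped for Mitf and for Sox10. Sox10 stood at 672, 662, 488 and 485 CPM in obese and at 449, 468, 498 and 495 CPM in lean pre-therapy tumors. Fibroblast markers summed to 352 to 1022 CPM in lean pre-therapy tumors, 52.5 to 379 after ETS in lean hosts, 59.7 to 338 in obese pre-therapy tumors and 370 to 3004 after ETS in obese hosts. Endothelial markers ranged from 44.4 to 213.7 CPM. Dendritic cell markers were at most 12.1 CPM and, outside lean pre-therapy tumors, at most 2.52 CPM, and adipocyte markers at most 33.0 CPM. The part of these cells was not tested either.

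**Figure D5:**
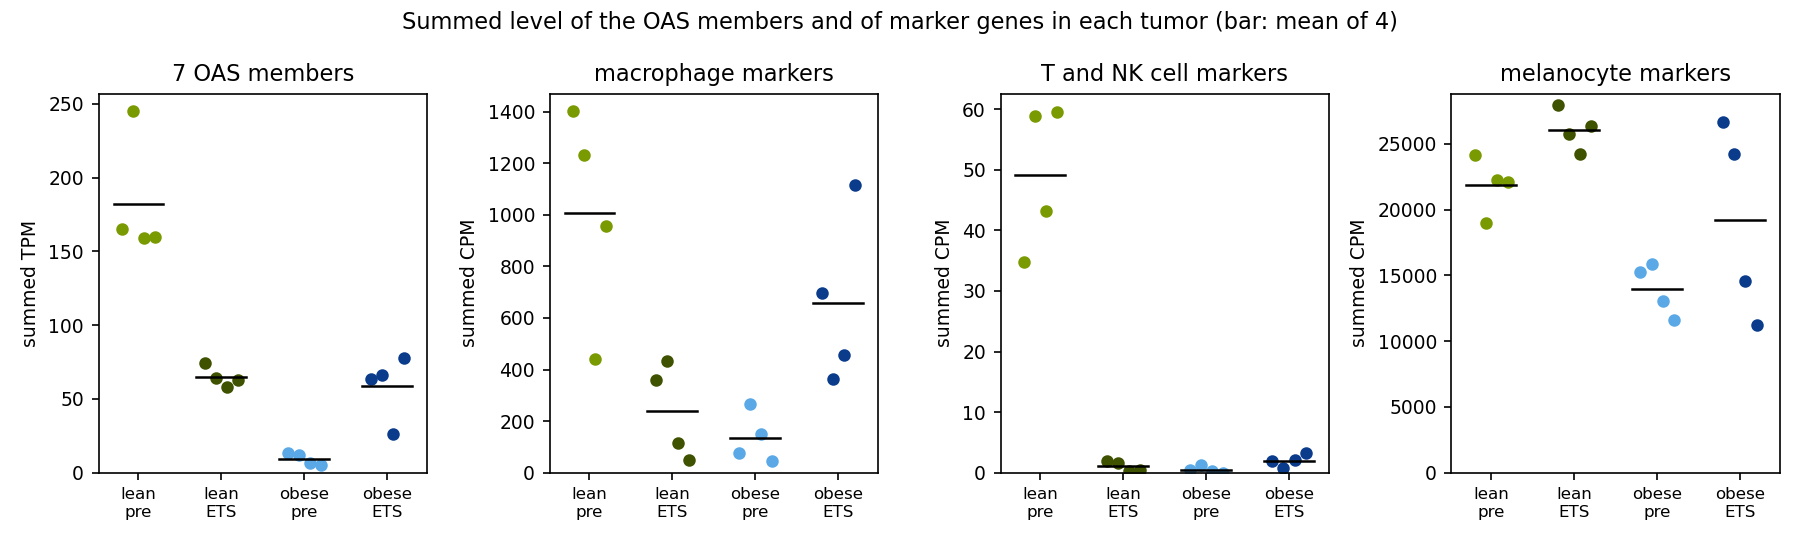
Summed TPM of the 7 members and summed CPM of the macrophage (10), T and NK cell (8) and melanocyte (8) markers in each tumor, with a bar at the mean of 4. Macrophage markers are at most 432 CPM in lean tumors after ETS and 265 CPM in obese pre-therapy tumors, T and NK cell markers are above 30 CPM in lean pre-therapy tumors alone, and melanocyte markers are present at 11260 CPM or more in all 16 tumors.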

How the data were processed

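RNA of 16 tumors was sequenced by the authors (TruSeq Stranded mRNA libraries, paired ends), trimmed with Trimmomatic, aligned to mm10 with HISAT2 2.1.0 and quantified per gene with StringTie 2.1.3b. The deposited read counts are whole numbers that the authors did not normalize, and the deposited TPM values are scaled by the authors per length and per tumor. The strand setting of the counting is not given in the sources used here, and 16 columns of FPKM values were not used. Groups and numbers of tumors came from the labels.

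The counts were tested with edgeR (4.0.16, R 4.3.3). As in the study's methods, 29568 genes that had 0 reads in 1 or more tumors were left out and TMM factors were applied. Unlike there, 1 was not added to the counts, they were not log-transformed before scaling, the quasi-likelihood test took the place of the exact test, and no minimum fold change was required. A mean per group was fitted over all 16 tumors, with 16209 genes tested and Benjamini-Hochberg adjustment over all of them. Genes with an adjusted p under 0.05 are the ones called. SE values were derived from the fold change and the F statistic. Fold changes in CPM are on the scale of edgeR's fit, and CPM levels are TMM-scaled. The alternatives were DESeq2's size factors, no filter, filterByExpr, the exact test after adding 1, DESeq2 1.42.0, limma 3.58.1 on log2(TPM + 1) and log2(TPM + 0.1), the replicate number as a block, only the groups compared, and each tumor left out. The members, the gene lists and the cell type markers were chosen with earlier results of these data known. Some genes of these lists are not reported here and are in none of the counts of pathway genes. Beside the members, genes were named if they were in these lists, were among the 3 tested protein-coding genes nearest to each side of both clusters, or were the 10 genes most correlated with the mean z-score of the members. Counts of tumors in the same group all differed by more than sampling noise. Depth was 47199949 to 61655287 counts per tumor, and promoters came from RefSeq (GRCm38.p6).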

Additional observations from a re-analysis of the deposited data

Results flagged for a closer look

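The effect of ETS differed between hosts for all 7 members. The difference, obese minus lean on the log2 scale, was 3.02 for Oas1a, 3.49 for Oas1b, 2.94 for Oas1g, 5.36 for Oas2, 8.06 for Oas3, 4.69 for Oasl1 and 6.34 for Oasl2, values that partly chose these genes.

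Among the double-stranded RNA sensors and effectors, the same difference was 3.09 for Ifih1, 2.27 for Ddx58, 3.79 for Dhx58, 1.54 for Tlr3, 1.27 for Eif2ak2, 1.31 for Adar, 7.18 for Zbp1 and, in the other direction, -0.40 for Prkra. In the list of interferon receptor signaling it was 0.77 for Ifnar2, 0.45 for Jak1 (a call lost in 9 of 23 alternatives), 2.76 for Stat2, 1.97 for Irf9, 3.81 for Irf1 and 5.56 for Irf7.

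Obese tumor 3 after ETS stood apart for Oas1g, with 4.17 CPM where the other 3 tumors of its group had 12.01 to 13.3 CPM. The gap was 0.863 of the range of the group, above Dixon's 95% critical value. Of 32 groups of 4 tumors examined (7 members and Oas1c), this was 1, and chance gives about 1 in 20. The same tumor was the lowest of its group for 7 of 7 members, so these groups are not independent of each other. For Oasl1 it had 3.49 CPM, where the others of its group had 10.4 to 11.8 CPM.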

How the results depend on the processing

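No member, and no pathway gene or count that was called, changed direction in an alternative that was run. On log2(TPM + 1) in limma, the median log2 fold change of the members was 1.81 after ETS in obese hosts, -3.26 for obese against lean hosts before therapy and 3.16 for the difference of ETS effects, and 10 of 21 pathway genes were called after ETS in obese hosts, against 16. In the list of interferon receptor signaling these were 2 of 8, against 6, and the cause was not tested. The TPM scale also moved the median of all genes, to -0.28 for ETS in lean hosts and 0.16 for the difference of ETS effects, from -0.01 and -0.05. Between hosts after ETS, 1 member, Oas3, was called with the exact test, with DESeq2 and with the replicate block, and no pathway gene was; leaving out a tumor gave 0 pathway genes and 0 members. All genes called between hosts after ETS numbered 904, with 66 when only these 2 groups entered the fit, 1571 by the exact test, 2078 by DESeq2, 1683 with the block, 450 without the filter and 186 without lean tumor 4 after ETS. Of the fold changes of the members, 852 of 861 alternatives kept their direction and side of the threshold. Many of these alternatives left out a tumor of a group that was not compared, where the fold change could hardly move. The count is therefore no measure of robustness. Shares computed from CPM in place of TPM moved by more than their SD for 19 of 28 values, with Oasl2 at 34.3%, 10.9%, 14.9% and 21.1% in lean pre-therapy, lean ETS, obese pre-therapy and obese ETS tumors.

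Whether the replicate numbers pair the tumors is not known. Correlations of deviations between tumors of the same number ran from -0.0921 to 0.531, and 12 of 24 were over 0.1. Tumors of unlike numbers were not compared in this way, so these values cannot decide it. With the block, 4, 7, 7, 1 and 7 members were called for ETS in lean hosts, ETS in obese hosts, hosts before therapy, hosts after ETS and the difference. Reads of Oas2 and Oas3 in obese pre-therapy tumors, 2 to 54 per tumor, limit the precision of their fold changes.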
